A study of Mus musculus with 6 samples.

Results

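The genes for the proteins of the cytosolic ribosome were followed in 3T3-L1 cells, an established mouse fibroblast line that is differentiated into adipocytes in culture. Members were the protein-coding genes of GENCODE mouse release 21 named Rpl or Rps with a number, together with Rplp0, Rplp1, Rplp2 and Rpsa. Kinases named Rps6k and pseudogenes were left out. This gave 86 of the 21769 gene IDs present for all 6 libraries. Of these, 46 encode proteins of the large subunit, 31 encode proteins of the small subunit, and 9 are like-named genes (Rpl3l, Rpl7l1, Rpl10l, Rpl22l1, Rpl36al, Rpl39l, Rps27l, Rps27rt and Rps19bp1). Rps19bp1 carries the name because its product binds Rps19, and it is not a ribosome constituent.

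Wild-type 3T3-L1 adipocytes were either kept as controls (3 libraries) or exposed to chronic intermittent hypoxia, called CIH here (3 libraries), a culture model of repeated falls in oxygen such as occur in sleep apnea. Cells of both groups were induced to differentiate with insulin, and the maintenance medium, with insulin at 0.1 µM, was renewed up to day 8. Fetal bovine serum was at 10% for all 6 libraries. A directional kit was used on 1.3 µg of total RNA. The oxygen levels, the length of the cycles and the origin of the replicates are not in the labels, so p-values measure only the spread between these libraries. Replicates 1 and 2 of each group came as tables with 1 value per gene and replicate 3 as tables with 1 value per transcript, here summed per gene. The values are FPKM, which divide fragments by the length of the gene or transcript and by the depth of the library. The 2 kinds of table were compared separately.

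A ribosome joins 1 copy of most of these proteins with ribosomal RNA, and cells make the proteins in matched amounts. Most of their mRNAs begin with a C followed by a run of pyrimidines, the 5′ terminal oligopyrimidine tract or TOP, through which growth signals acting on mTOR and the RNA-binding protein Larp1 turn their translation up or down together. Fat cells express them at high levels, and differentiation and hypoxia are both known to change ribosome production.

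The annotated start sites carry this tract in a minority of members. Start sites in RefSeq (GRCm38.p6) were matched for 66 of the 86 members, and at the annotated start 14 of them (21.2%) had a C with at least 4 pyrimidines after it, against 2.71% of 16522 genes. The letters CTTTCC lay on the sense strand within 20 bases before to 30 after the start in 13 members (19.7%) and in 2.69% of genes. The letters CCGGAAG, which contain the core of ETS-family binding motifs, lay on either strand of the 300 bases around the start in 26 members (39.4%) and in 13.4% of genes. A match only says that the letters are there. A tract that begins away from the annotated start was not counted. Below, 30 bases around the start are written 5′ to 3′ with the pyrimidine run in capitals. Rpl15, Rpl35, Rps10 and Rpl38 show long runs, and Rps27, its retrogene-like copy Rps27rt and its relative Rps27l are shown because these related genes had different values below.
Rpl15 (chr14:18270972-18271001, minus strand): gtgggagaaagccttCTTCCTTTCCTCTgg
Rpl35 (chr2:39005117-39005146, minus strand): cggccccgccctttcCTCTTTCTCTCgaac
Rps10 (chr17:27635230-27635259, minus strand): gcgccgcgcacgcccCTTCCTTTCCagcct
Rpl38 (chr11:114668565-114668594, plus strand): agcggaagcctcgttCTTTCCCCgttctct
Rps27 (chr3:90213634-90213663, minus strand): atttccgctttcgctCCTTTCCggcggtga
Rps27rt (chr9:114982725-114982754, minus strand): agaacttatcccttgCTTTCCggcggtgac
Rps27l (chr9:66946071-66946100, plus strand): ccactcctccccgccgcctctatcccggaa
Of these 7 windows, that of Rps27l, at the first of its 2 listed starts, has no pyrimidine run starting at the annotated position. Among tested members, the 14 with a run had a median log2 change of 0.39 in replicates 1 and 2, with 3 called higher. The 49 matched without a run at the annotated start had a median of 0.36, with 17 called higher. The latter may still carry the tract, so these values do not compare members with and without it. Of all tested genes 18.2% were called higher.

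Library depth could be read from the steps of the gene tables and was 25700000 to 28000000 fragments, and the transcript tables keep no such steps and their depth is unknown. The share of all FPKM on mitochondrial transcripts was 14.2% and 11.2% in controls 1 and 2, 15.5% and 16.3% in CIH 1 and 2, 43.7% in control 3 and 22.4% in CIH 3. Summed white adipocyte markers (12 of 12 detected) were 7512 and 7845 FPKM in controls 1 and 2, 7176 and 6389 in CIH 1 and 2, 28509 in control 3 and 745 in CIH 3. Fibroblast and preadipocyte markers summed to 363, 383, 569 and 566 in the gene tables in the same order, and to 1084 in control 3 and 5699 in CIH 3. The library labelled CIH 3 therefore stands apart from the adipocyte label by its markers. What part this has in the values of the replicate 3 pair was not tested. The sums hide changes in replicates 1 and 2, where limma called 6 of the 12 adipocyte markers lower, 1 higher and 5 not. The share of all tested genes called lower was 20.9%. Lower were Cfd (log2 change −3.47), Retn (−3.0), Slc2a4 (−1.88), Pparg (−0.91), Lipe (−0.42) and Cebpa (−0.35), and higher was Cd36 (0.61). What part these marker changes have in the values of replicates 1 and 2 was not tested either. Proliferation markers summed to 35.5 and 34 in controls 1 and 2, 72.0 and 73.2 in CIH 1 and 2, 37.1 in control 3 and 117 in CIH 3. Macrophage markers summed to at most 12.5 FPKM in any library with Adgre1 at 0 throughout, and endothelial markers to at most 0.719.

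Ribosomal protein mRNAs were on the whole higher in CIH in replicates 1 and 2, by a modest amount that varied between libraries. Their summed level was 13769 and 15671 FPKM in controls 1 and 2, and 21364 and 18373 FPKM in CIH 1 and 2. Both CIH sums lay above both control sums. They made up 4.28% and 4.9% of all FPKM in the controls against 5.91% and 5.39% in CIH. In bulk RNA, more RNA per cell and a different mix of cells cannot be told apart. After a filter at a mean of 1 FPKM over the 6 libraries, 83 of the 86 members and 10976 genes in all were tested with limma on log2(FPKM + 1).

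By that test 25 of the 83 members rose (30.1% of them, beside 18.2% of all tested genes), 1 fell (beside 20.9% of all genes), and 57 were not called at a Benjamini-Hochberg adjusted p under 0.05. The 18.2% is not matched for coding length. Other protein-coding genes were called higher in 34.3% under 300 coding bases, 28.6% from 300 to 450 and 25.7% from 450 to 600. Their share was 15.8% from 900 bases up. Members of those lengths below 600 bases were called higher in 27.3%, 36.7% and 26.3%, in the same order. Whether members exceed other genes of equal length was not tested. The median change of the members was 0.38 on the log2 scale, with quartiles at 0.24 and 0.55, and that of all genes was −0.01. A change above 0 was found in 75 of 83 members and in 47.6% of all genes. In 63 members both CIH libraries lay above both controls (35.1% of all genes), in 1 below (38.9% of all genes), and in 19 the groups overlapped. The count of members that rose changed when single libraries were left out. Such a fit leaves 1 library in a group and alters power for every gene, so no count is read from it. A call lost in such a fit, where named below, may reflect that alone. With the replicate number as a block 16 rose (14.2% of all genes) and 1 fell (16.2%).

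The distance between libraries of the same group was not small beside that between groups. The median member was 0.58 higher in CIH 1 than in control 1 and 0.21 higher in CIH 2 than in control 2, both in log2 units. Control 2 was itself 0.19 above control 1 at the median, with 65 of 83 members higher, and CIH 1 was 0.22 above CIH 2, with 77 of 83 higher. The median of all genes lay between −0.02 and 0.01 in each of these 6 pairs of libraries. Thus the members moved together between libraries of one group as well as between groups, and the order of the 4 libraries by their medians was control 1, control 2, CIH 2, CIH 1.

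**Figure D1:**
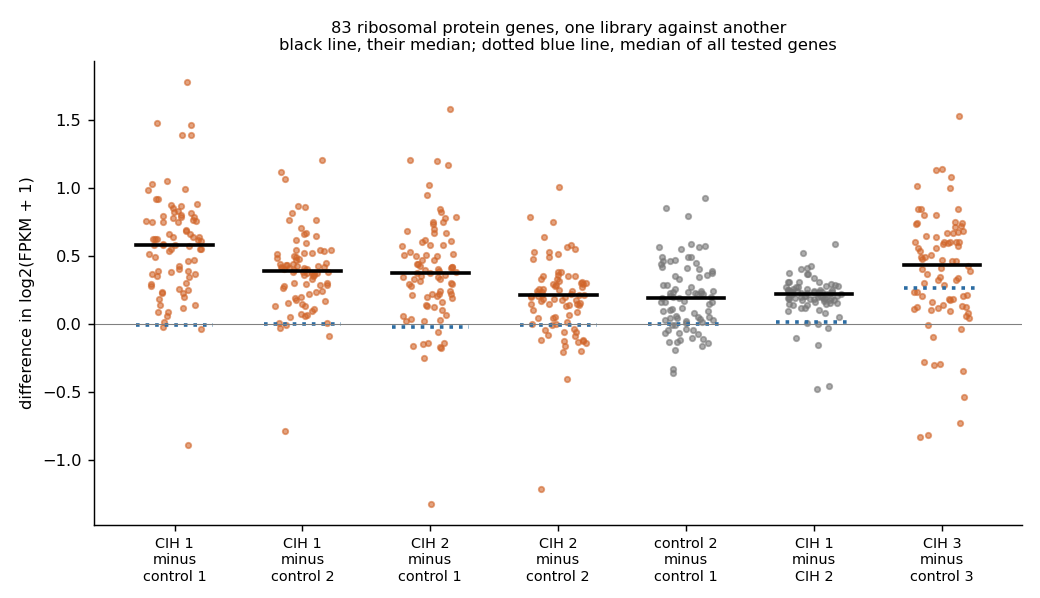
Each point is 1 of the 83 tested ribosomal protein genes, and the vertical axis is its difference in log2(FPKM + 1) between the 2 libraries named below it. Orange points compare CIH with control and grey points compare libraries of 1 group; the black medians of the grey pairs, 0.19 and 0.22, are close to that of CIH 2 minus control 2, 0.21, while the dotted medians of all genes stay near 0 except in the replicate 3 pair (0.26).

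The ribosomal stalk, the lateral arm that recruits elongation factors, is built from Rplp0 and the acidic proteins Rplp1 and Rplp2. Rplp1, the most abundant member per length in controls 1 and 2, measured 1000.1 and 1164 FPKM in controls 1 and 2 and 2045 and 1725 in CIH 1 and 2. Both CIH libraries were far above both controls, and the log2 change was 0.80 (SE 0.187, limma adjusted p = 0.0274). Rplp0 measured 709 and 755 FPKM in the controls and 1200.1 and 1080.0 in CIH. Its groups also stood apart, with a log2 change of 0.64 (SE 0.14, limma adjusted p = 0.0233). With the replicate number as a block neither was called (limma adjusted p = 0.0838 for Rplp1 and 0.0768 for Rplp0), and over all alternatives the adjusted p ran from 0.00862 to 1.0 for Rplp1 and from 0.0072 to 1.0 for Rplp0. Both also lost the call without control 1, without control 2 and without CIH 1. Rplp2 measured 178 and 264 FPKM against 307 and 257, so its groups overlapped and it was not called (log2 change 0.37, limma adjusted p = 0.218).

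Rpsa, a small-subunit protein also known as the laminin receptor, had close replicates. It measured 314 and 306 FPKM in controls 1 and 2 and 555 and 477 in CIH 1 and 2, a log2 change of 0.73 (SE 0.118, limma adjusted p = 0.0102). Both CIH libraries were higher, and in the replicate 3 pair the level was also higher in CIH, 534 against 384 FPKM.

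In the large subunit 15 of 46 members rose (32.6%, beside 18.2% of all genes), 0 fell (beside 20.9%) and 31 were not called, with a median log2 change of 0.40. Rpl41, which encodes the smallest ribosomal protein, had the largest upward change of any member. It measured 201 and 299.6 FPKM in controls 1 and 2 and 692 and 604 in CIH 1 and 2. Both CIH values lie far above both controls, and the log2 change was 1.39 (SE 0.215, limma adjusted p = 0.00903). Rpl41 was nearly level in the replicate 3 pair, at 1643 FPKM in control 3 and 1768 in CIH 3.

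Rpl35, which lies at the exit of the peptide tunnel, measured 149 and 193 FPKM in controls 1 and 2 and 296 and 251 in CIH 1 and 2. The groups did not overlap, and the log2 change was 0.68 (SE 0.16, limma adjusted p = 0.0286). The call was lost with the replicate block and without control 1, CIH 1 or CIH 2. A gene on the opposite strand covers 68.3% of the Rpl35 mRNA, and whether the counting used strand is not stated, so reads of the 2 cannot be told apart. Rpl38, known for its part in the translation of Hox mRNAs, measured 132 and 229.7 FPKM against 347 and 269. Control 1 was low and control 2 close to CIH 2, so that the log2 change of 0.80 was not called (SE 0.288, limma adjusted p = 0.0814). Rpl11 and Rpl5, which together bind Mdm2 when ribosome assembly fails, had log2 changes of 0.44 and 0.09 and were not called (limma adjusted p = 0.112 and 0.527).

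Other large-subunit genes that rose had log2 changes from 0.34 for Rpl12 to 0.65 for Rpl29, and comprised Rpl6, Rpl14, Rpl18, Rpl21, Rpl27, Rpl27a, Rpl30, Rpl35a and Rpl39 besides. They are named because the count alone hides them, after their values were seen. Rpl39, a protein of the tunnel wall, measured 119 and 132 FPKM in controls 1 and 2 and 207 and 169 in CIH 1 and 2 (log2 change 0.58, limma adjusted p = 0.0239), and lost the call without control 1 or without CIH 1. Rpl21, Rpl29 and Rpl35a were called from gene-table values under 5 FPKM, and their levels are uncertain for the reasons given below for members with many copies.

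In the small subunit 7 of 31 members rose (22.6%, near the 18.2% of all genes), 0 fell (20.9% of all genes) and 24 were not called, with a median log2 change of 0.36. Rps26, at the mRNA exit channel, measured 168 and 201 FPKM in controls 1 and 2 and 318 and 280 in CIH 1 and 2. The groups did not overlap, and the log2 change was 0.70 (SE 0.127, limma adjusted p = 0.0143). Rps26 was not called without control 1 or without CIH 1. Besides Rpsa, the others that rose included Rps3, Rps12, Rps24 and Rps25, with log2 changes between 0.32 and 0.44.

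Rps28 and Rps29 had larger differences than Rps26 but wider spread. Rps28 measured 57.9 and 111 FPKM in controls 1 and 2 and 161 and 135 in CIH 1 and 2 (log2 change 0.87, SE 0.311, limma adjusted p = 0.0806). Rps29 measured 57.3 and 104 FPKM against 152 and 133 (log2 change 0.87, SE 0.287, limma adjusted p = 0.0664). In both, control 1 stood well below control 2, and neither was called. Without control 2, Rps28, Rps29, Rpl38, Rplp2 and Rpl11 were called higher, and Rps27a was without CIH 2. Rps27a, which is made as a fusion with ubiquitin, had a log2 change of 0.66 and was not called (119 and 94.5 FPKM against 206 and 137, limma adjusted p = 0.0729). Rps19, the gene most often mutated in Diamond-Blackfan anemia, had a log2 change of 0.36 (limma adjusted p = 0.0829).

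**Figure D2:**
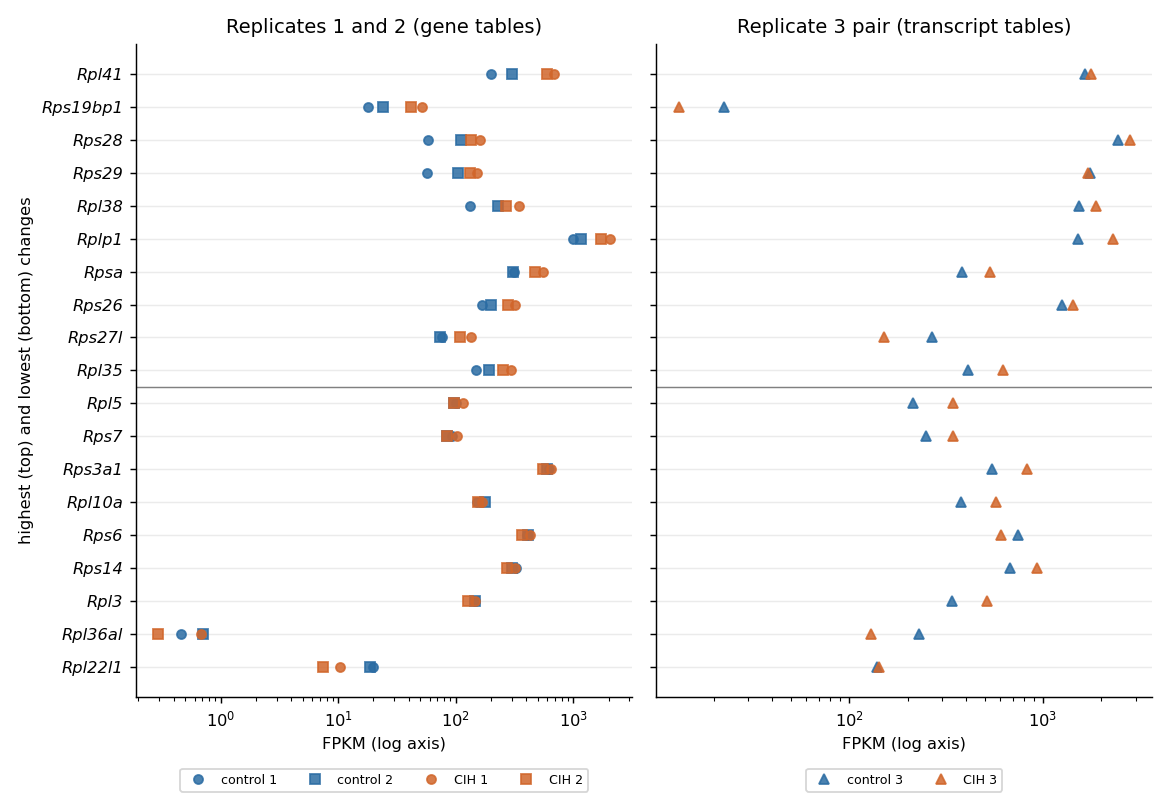
FPKM on a log axis for 10 of the highest and 9 of the lowest members by log2 change in replicates 1 and 2, with gene tables on the left and the replicate 3 transcript tables on the right. Each point is 1 library. For Rpl41, CIH 1 and 2 (692 and 604 FPKM) lie right of both controls, while for Rps3a1 and Rps14 the 4 libraries interleave and for Rpl22l1 both CIH points lie left.

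A group of members at differing levels stayed near 0. Rps6, the small-subunit protein phosphorylated by S6 kinase, measured 407 and 414 FPKM in controls 1 and 2 and 433 and 369.7 in CIH 1 and 2. The CIH libraries lay on either side of the controls (log2 change −0.04, SE 0.119, limma adjusted p = 0.825). Rpl3, a core protein near the peptidyl transferase centre, measured 145 and 147 FPKM against 146 and 128 (log2 change −0.09, SE 0.0943, limma adjusted p = 0.465). Rps3a1 measured 627 and 595 FPKM against 653 and 559, and its groups overlapped as well. The log2 changes of Rpl10a, Rps14, Rps7 and Rpl5 lay between −0.07 and 0.09, and none was called.

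To see which members moved apart from their own pool, FPKM were also scaled to the same summed level of the members in each library. The members then test against each other, and a median near 0 follows from the scaling. In that fit limma called 3 of 83 members higher, a share near the 4.03% of all genes. They were Rpl41 (log2 change 0.96, limma adjusted p = 0.00245), Rps19bp1 (0.69, adjusted p = 0.00516) and Rpl29 (0.43, adjusted p = 0.0146). Rps19bp1 is not a ribosome constituent. Rpl29 had 0.587 to 1.72 FPKM in the gene tables, as few as 17 fragments, and 61 near-identical copies. The same fit called 9 members lower, beside 43.2% of all genes, among them Rpl22l1, Rpl3, Rpl10a, Rps6, Rps14, Rps3a1, Rpl31 and Rpl5. Rpl3 lay 0.52 below the pool (log2 change −0.52, adjusted p = 0.00829) and Rps6 0.47 below (−0.47, adjusted p = 0.0152). The stalk genes Rplp0 and Rplp1 and also Rpsa were not called in this fit, with log2 changes of 0.21, 0.37 and 0.30.

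Like-named paralogs are given beside their partners, and differences between partners were not tested. Rpl22l1, the paralog that stands in for Rpl22 in some ribosomes, was the member that fell. It measured 20 and 18.5 FPKM in controls 1 and 2 and 10.3 and 7.4 in CIH 1 and 2. Both CIH libraries lay below both controls, and the log2 change was −1.06 (SE 0.154, limma adjusted p = 0.00779). Rpl22 itself measured 40.3 and 43.6 FPKM against 53.5 and 42.2 and was not called (log2 change 0.18, limma adjusted p = 0.316). In the replicate 3 pair both were nearly level, Rpl22l1 at 139 and 143 FPKM and Rpl22 at 407 and 444.

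Rps27l, a p53 target and paralog of Rps27, measured 76.4 and 73.0 FPKM in controls 1 and 2 and 134 and 109.6 in CIH 1 and 2. It rose by 0.69 on the log2 scale (SE 0.114, limma adjusted p = 0.0108), with no overlap. Rps27 measured 80.2 and 101 FPKM against 123 and 93.0 and was not called (log2 change 0.25, limma adjusted p = 0.307). Rps27rt measured 66.1 and 51.1 FPKM against 64.5 and 88.8 and was not called either (log2 change 0.38, limma adjusted p = 0.184). The transcript tables gave another picture of this trio, with Rps27 at 2727 and 2923 FPKM, Rps27rt at 0.394 and 3.03, and Rps27l at 268 in control 3 and 150.4 in CIH 3. Rps27 and Rps27rt each have 10 near-identical copies in the genome, so how reads were divided between them is uncertain in both tables.

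Rpl7l1, a relative of Rpl7 that acts in pre-ribosome assembly, measured 28.4 and 29.5 FPKM in controls 1 and 2 and 48.8 and 43.0 in CIH 1 and 2. It rose by 0.65 (SE 0.0851, limma adjusted p = 0.00619), with close replicates and no overlap, and Rpl7 was not called (226 and 216 FPKM against 264 and 229.5, log2 change 0.16). Rps19bp1 measured 18.0 and 24.3 FPKM against 51.8 and 41.6 and rose by 1.11 (SE 0.175, limma adjusted p = 0.00951). Rpl36a was not called (log2 change 0.26, limma adjusted p = 0.069), nor was Rpl36al, which was under 1 FPKM in all 4 gene tables (log2 change −0.10). Rpl10 (log2 change 0.15) and Rps4x (0.28) were not called. The paralogs Rpl10l and Rpl39l are listed at 0 in every library, and Rpl3l, a muscle protein, reached at most 0.18 FPKM, in CIH 3.

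In the replicate 3 pair, with 1 library per group and therefore no test, 72 of 83 members were higher in CIH 3 than in control 3, beside 61.9% of all genes. The median change of the members was 0.43 on the log2 scale and that of all genes 0.26. Their summed level was 53597 FPKM in control 3 and 69207 in CIH 3, or 6.3% and 12.58% of all FPKM, and 11.2% and 16.21% without mitochondrial transcripts. At least 2-fold higher were 5 members (beside 21.8% of all genes) and at least 2-fold lower 0 (beside 11.8%). Scaling moved these values with the whole table: the member median was 1.05 after scaling to equal totals, where the median of all genes was 0.84, and 0.13 after scaling by the median of ratios, where it was 0.00.

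Those 5 were Rps27rt, Rps20 (46.3 and 103 FPKM), Rpl12 (351 and 770.2), Rpl10 (651 and 1378) and Rps4x (459 and 929). Rpl12, a stalk-base protein, is the member of these that also rose in replicates 1 and 2 (99.6 and 99.2 FPKM against 134 and 118, log2 change 0.34, limma adjusted p = 0.0381). The lowest values were those of Rps27l (log2 change −0.83), Rpl36al (−0.82, 228 and 129 FPKM), Rps19bp1 (−0.72, 22.5 and 13.2 FPKM) and Rpl9 (−0.54, 1463 and 1008 FPKM). The first 3 of these are like-named genes, of which Rps19bp1 is not a ribosome constituent. The median of the 6 tested like-named genes was −0.34, against 0.40 for the large and 0.47 for the small subunit.

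Set side by side, 66 members were above 0 in both kinds of table, 2 were below 0 in both (Rps6 and Rpl36al), 9 were higher in replicates 1 and 2 and lower in replicate 3, and 6 were the reverse. Of the 25 that rose in replicates 1 and 2, 21 were also above 0 in the replicate 3 pair and 4 were below. Of all 83 tested members, 72 were above 0 in that pair (61.9% of all genes) and 75 in replicates 1 and 2 (47.6%). With most members above 0 in each, many above 0 in both follow from these counts alone and do not show agreement gene by gene. The sizes of the 2 changes did not run together over the 83 members (Spearman's rho −0.21 across genes, which share their libraries). The difference of the changes was tested with an interaction term in limma, whose spread comes from replicates 1 and 2 alone. It called 13 members more positive in replicate 3 (beside 43.9% of all genes) and 7 more negative (beside 22.1%). In a fit over all 6 libraries that also took the kind of table as a covariate, limma called 0 members in either direction (beside 0.182% of all genes higher and 0.392% lower), and 19 had an unadjusted p under 0.05.

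**Figure D3:**
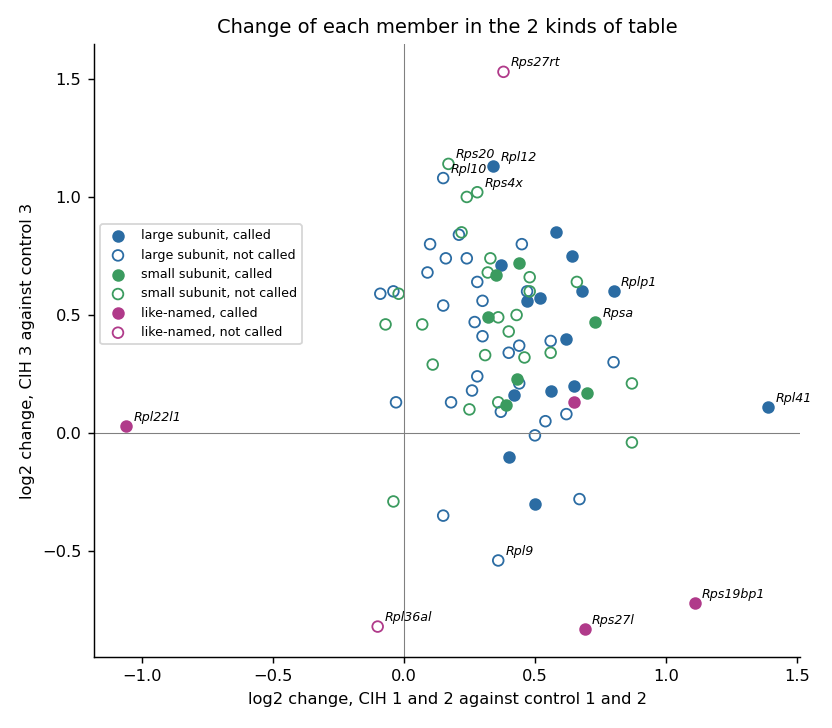
Each point is 1 of the 83 tested members, with its log2 change in replicates 1 and 2 on the horizontal axis and in the replicate 3 pair on the vertical axis; filled points were called by limma in replicates 1 and 2. Most points (66) lie in the upper right part, Rpl41 is far right but near 0 vertically, and Rps27l, Rps19bp1 and Rpl36al lie lowest.

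Some members had very different levels in the 2 kinds of table. Among tested members, 11 had gene-table values that averaged under 15 FPKM, a bound chosen after the values were seen, and the next stood at 33.9. These 11 were Rpl13a, Rpl21, Rpl22l1, Rpl24, Rpl29, Rpl34, Rpl35a, Rpl36al, Rps10, Rps18 and Rps2. In control 3 the same 11 ranged from 86.1 to 744 FPKM (median 228, against 534 for the other 72). Rpl24 averaged 0.795 FPKM in the gene tables and measured 744 in control 3, and Rps10 averaged 1.44 and measured 596. For 4 of the 11 at least 50% of the mRNA lies under another annotated gene on the same strand (Rpl24 71.5%, Rpl36al 63.1%, Rpl13a 59.3% and Rps10 53.6%), which holds for 0 of the other 72. At least 10 near-identical copies, with 90% identity over 80% of the coding sequence, exist for 6 of the 11 (Rpl21 77, Rpl29 61, Rps2 47, Rpl35a 21, Rps18 14 and Rpl34 10) and for 32 of the other 72. What part overlap and copies have in these low values was not tested. Over all 86 members 80 have at least 1 such copy, with a median of 8, and 14 of the 25 that rose have 10 or fewer. Rpl41 has 7 copies, Rplp1 9, Rpsa 15 and Rps26 4, and these levels depend on how reads shared with copies were counted. Rps19bp1, Rps3 and Rpl8 have 0.

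**Figure D4:**
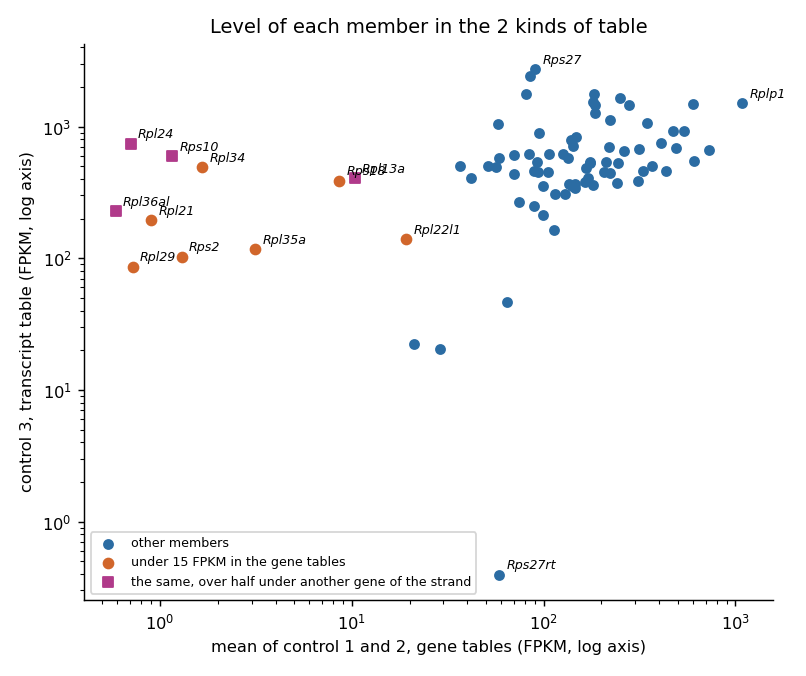
Level of each tested member in the gene tables (mean of controls 1 and 2) against the transcript table of control 3, both in FPKM on log axes. The 11 coloured members lie at 86.1 to 744 FPKM on the vertical axis and to the left of the other members, with Rpl22l1 (19.3 FPKM on the horizontal axis) close to Rps19bp1 (21.2), squares mark those with at least 50% of the mRNA under another gene of the strand, and Rps27rt lies alone at the bottom.

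Genes around the ribosome were read from lists. Ribosome biogenesis factors, which process and assemble ribosomal RNA in the nucleolus, rose for 39 of 49 (79.6%, beside 18.2% of all genes), with 0 lower and 10 not called, and had a median log2 change of 0.57 in replicates 1 and 2 but −0.02 in the replicate 3 pair. Rps19bp1, counted above, is also on this list. Nhp2, a core protein of pseudouridylation particles, measured 45.2 and 55.2 FPKM in controls 1 and 2 and 134 and 109 in CIH 1 and 2 (log2 change 1.26, limma adjusted p = 0.00441). The replicate 3 pair went the other way for Nhp2, from 37.1 to 20.6 FPKM. For RNA polymerase I and its factors 7 of 13 rose, 1 fell and 5 were not called. Polr1a, its largest subunit, measured 12.0 and 11.4 FPKM against 23.8 and 24.4 (log2 change 0.98, limma adjusted p = 0.00143). Rack1 (log2 change 0.15) and Fau (−0.10), ribosomal proteins that the naming rule leaves out, were not called.

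The shares of all genes to set beside the next counts are again 18.2% higher and 20.9% lower. Translation elongation and termination factors rose for 4 of 11 (36.4%) with 0 lower, and initiation factors for 9 of 35 (25.7%) with 2 lower (5.71%). Of 18 genes that control the translation of TOP mRNAs, 4 rose (22.2%), 6 fell (33.3%) and 8 were not called. Eif4ebp2, a repressor of cap-dependent initiation, measured 56.9 and 58.1 FPKM in controls 1 and 2 and 27.0 and 27.7 in CIH 1 and 2 (log2 change −1.04, limma adjusted p = 0.00112). Larp1 fell by less (52.6 and 56.0 FPKM against 44.8 and 45.3, log2 change −0.26, limma adjusted p = 0.0362), and Myc, which drives ribosome production genes, rose (24 and 22.8 FPKM against 40.0 and 43.3, log2 change 0.81, limma adjusted p = 0.00267). Myc went the other way in the replicate 3 pair, from 19.9 to 9.27 FPKM, and limma's interaction term called the difference (−1.83, adjusted p = 0.000453). Mitochondrial ribosomal proteins, which serve the organelle's own ribosome, rose for 35 of 78 (44.9%) with 0 lower and a median of 0.32 in replicates 1 and 2. In the replicate 3 pair their median was −0.88, where that of the cytosolic ribosomal proteins was 0.43.

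**Figure D5:**
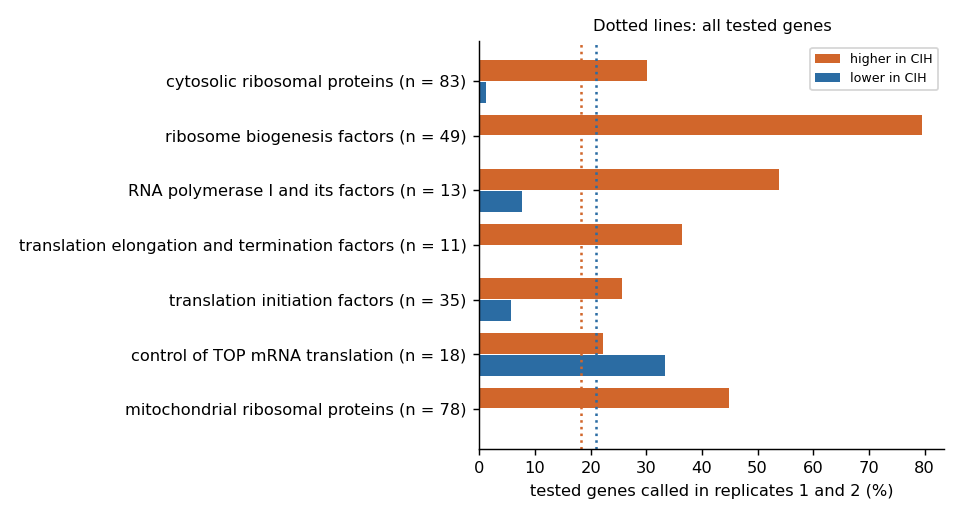
Percent of tested genes called higher (orange) or lower (blue) by limma in replicates 1 and 2 for the cytosolic ribosomal proteins and 6 related lists, with dotted lines at the 18.2% higher and 20.9% lower of all tested genes. Ribosome biogenesis factors reach 79.6% higher, the ribosomal proteins 30.1%, and none of the biogenesis factors was called lower.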

How the data were processed

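RNA sequencing values for 3 control and 3 CIH libraries of 3T3-L1 adipocytes were used as the authors deposited them, in FPKM. Per the submitters' processing notes, featureCounts 1.5.0-p3, DESeq 1.8.3 and the build GRCm38 were used, with no role given. An aligner was not given in the sources used here. In replicates 1 and 2 the tables have 1 row per gene and replicate 3 has 1 row per transcript, whose rows were summed per gene ID. Of the gene-table values under 50 fragments, 98.4 to 98.6% fell within 0.05 of whole fragments, which gave the depths.

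Symbols, lengths and overlaps came from GENCODE mouse release 21, and copies from BLAST+ 2.17.0 of coding sequences against all transcripts of that release. Genes averaging 1 FPKM or more across libraries entered a limma fit (version 3.58.1 in R 4.3.3, trended empirical Bayes) on log2(FPKM + 1), so that changes of low genes are understated, with Benjamini-Hochberg adjustment over all 10976 genes and calls at 0.05. The fit was tested on simulated data with 200 changed genes, and recovered 44% of 1.5-fold and 77% of 2-fold changes, with 4 false calls. A member not called may therefore still differ. Each simulated gene varied independently, so the shared movement of members within a group was not covered. Tables were made with Python 3.11.15. Named members were the 10 largest changes each way, paralog pairs, the stalk, Rpsa, Rps6, Rpl5, Rpl11, Rps19, Rpl38, Rpl41, Rps27a and members under 1 FPKM; other names were chosen after their values were seen, and a few genes are not reported here. Members and lists were chosen with earlier results of these data known. Over all 6 libraries the deviations of same-numbered libraries correlated at 0.529, 0.587 and 0.581, which sets replicate 3 apart from the other 2 numbers, and controls 1 and 2 correlated as highly with the other number (0.568 and 0.567).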

Additional observations from a re-analysis of the deposited data

Results flagged for a closer look

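For 8 members limma's interaction term called a difference between the change in replicates 1 and 2 and that in the replicate 3 pair, with the 2 changes of opposite sign. The spread comes from replicates 1 and 2 alone. The same term called 43.9% of all tested genes more positive in replicate 3 and 22.1% more negative, so a call alone does not set these members apart. The share of all genes called with opposite signs is not given here. The difference, replicate 3 minus replicates 1 and 2 on the log2 scale, was −1.83 for Rps19bp1 (adjusted p = 0.00576) and −1.52 for Rps27l (adjusted p = 0.00276), which rose in replicates 1 and 2 and were lower in CIH 3 than in control 3. It was 1.09 for Rpl22l1 (adjusted p = 0.0198), which fell in replicates 1 and 2 and was nearly level in the replicate 3 pair. It was 0.68 for Rpl3 (adjusted p = 0.0216) and 0.63 for Rpl10a (adjusted p = 0.0411), which were near 0 in replicates 1 and 2 and higher in CIH 3. It was −0.89 for Rpl9 (adjusted p = 0.0237), −0.80 for Rpl35a (adjusted p = 0.0386) and −0.49 for Rpl24 (adjusted p = 0.024), which were above 0 in replicates 1 and 2, where Rpl35a was called, and lower in CIH 3. The kind of table, the replicate and the marker levels of CIH 3 cannot be told apart here.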

How the results depend on the processing

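The count of members that rose in replicates 1 and 2 (25) was 19 to 35 under other pseudocounts, scaling to totals, scaling by the median of ratios and no trend. It was 3 with no filter on low values, 42 with a filter at 10 FPKM, 43 with scaling by the upper quartile and 3 with scaling to the summed ribosomal proteins. With a replicate block it was 16, with Rplp0, Rplp1 and Rpl35 losing the call and Rps27a gaining it among the named members, and with the numbers crossed, tried after seeing the data because deviations of same-numbered libraries correlated at −0.178, it was 50. Leaving out 1 library gave 7 to 31, and in fits over all 6 libraries it was 0, 0 and 0. The 1 that fell became 0 with no filter, 9 with scaling to the summed ribosomal proteins and 0 in the 3 fits over all 6 libraries. The cause was not tested, except that scaling to the members removes their shared change by construction.

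In the replicate 3 pair the members at least 2-fold higher (5) were 45 with scaling to totals, 9 with totals without mitochondrial transcripts, 1 with the median of ratios and 1 with the summed ribosomal proteins, and those lower (0) were 2 and 3 with the last 2 scalings. The interaction counts (13 and 7) became 2 and 13 with the median of ratios. The shares of all genes under these scalings are not given here, so these counts are not read as a result about the members. The median change in replicates 1 and 2 was −0.03 with scaling to the summed ribosomal proteins and 0.28 to 0.48 without 1 library; in the replicate 3 pair it was 1.05 with totals, 0.13 with the median of ratios and 0.06 with the summed ribosomal proteins.

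Of the named members' values under other settings, 495 kept direction and call, 67 lost and 26 gained the call, and 39 changed sign. With scaling to the summed ribosomal proteins the log2 change was −0.36 for Rps7, −0.34 for Rpl5, −0.27 for Rpl7, −0.28 for Rpl10, −0.24 for Rpl22, −0.17 for Rpl36a, −0.15 for Rps4x, −0.18 for Rps27, −0.05 for Rps27rt, −0.06 for Rplp2 and −0.06 for Rps19. With totals it was −0.05 for Rps7 and −0.03 for Rpl5. With the median of ratios it was 0.01 for Rps3a1, and with the upper quartile 0.02 for Rps3a1. In the 3 fits over all 6 libraries it was 0.13 for Rpl3, 0.11 for Rps14, 0.17 for Rpl10a and 0.19 for Rps3a1. Without 1 library, the log2 changes that took both signs ranged from −0.29 to 0.09 for Rpl36al, −0.19 to 0.00 for Rpl3, −0.19 to 0.04 for Rps14, −0.15 to 0.08 for Rps6, −0.15 to 0.08 for Rpl10a, −0.13 to 0.10 for Rps3a1, −0.07 to 0.21 for Rps7 and −0.03 to 0.21 for Rpl5. Tested members outside the 11 low ones had at least 503 fragments in each gene table.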

Other observations

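The near-identical copies of the 11 low members are listed in the gene tables under gene IDs of their own. The copies of Rps2, of which 46 are listed, summed to 674 and 729 FPKM in controls 1 and 2 and 1505 and 1314 in CIH 1 and 2, where Rps2 itself averaged 1.75. Those of Rps10 (3 copies) summed to 345 and 343 FPKM against 453 and 413, those of Rpl34 (10 copies) to 499.9 and 479 against 630.4 and 518, and those of Rps18 (14 copies) to 193 and 201 against 310.2 and 253. The copies of Rpl24 summed to 9.47 and 7.88 FPKM against 13.1 and 8.96, and those of Rpl36al to at most 2.34. For 8 of the 11 low members both CIH sums lay above both control sums. Taken gene by gene rather than as sums, both CIH libraries lay above both controls in 35.1% of all tested genes and in 63 of 83 tested members. The genes that overlap Rpl24, Rpl36al and Rps10 on the same strand (Gm28037, Gm49383 and RPS10-NUDT3) are listed at 0 in all 4 gene tables.

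Short members differed most in replicates 1 and 2 and between the controls. The 11 tested members with under 300 coding bases, among them Rpl41, Rps28, Rps29 and Rpl38, had a median log2 change of 0.58 in replicates 1 and 2 and differed by 0.49 between controls 2 and 1. The 20 members with 600 to 900 coding bases had medians of 0.36 and 0.10 for the same differences. In the replicate 3 pair the order was the other way, with medians of 0.24 for the short and 0.58 for the longer members, and CIH 1 minus CIH 2 was nearly level at 0.24 and 0.22. Other protein-coding genes under 300 bases had a median change of 0.23, and those over 900 bases −0.05. Over the 83 members coding length and change were weakly related (Spearman's rho −0.26 in replicates 1 and 2, 0.24 in the replicate 3 pair and −0.37 for control 2 minus control 1), across genes that share their libraries.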
